A study of Mus musculus with 6 samples.

Results

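The genes described here form a short bone morphogenetic protein (BMP) circuit, namely the ligands Bmp2 and Bmp4, the receptor Bmpr1a, the secreted antagonists Nog and Grem1, the inhibitory Smads Smad6 and Smad7, and the target genes Id1, Id2 and Id3. They were found in the table by symbol, and 9 of the 10 have a row among the 21686 genes of the count table. No row is named Nog, which is not analysed here. RNA was sequenced from MC3T3-E1 Subclone 14 cells, a clonal line of mouse osteoblast precursors, so that all libraries come from 1 clone in culture. The control group received 100 µL of PBS, the dexamethasone group 10 µM dexamethasone, a synthetic glucocorticoid, and the dexamethasone + EPC-EVs group 10 µM dexamethasone with 100 µg of EPC-EVs. EPC-EVs are extracellular vesicles collected from mouse bone marrow endothelial progenitor cells. Each group was kept for 72 hours and has 2 libraries, which the study calls biological replicates. No group received EPC-EVs without dexamethasone.

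BMPs are secreted dimers that were named for their ability to induce bone. They bind pairs of type I and type II serine/threonine kinase receptors at the cell surface, of which Bmpr1a is a type I receptor. The activated receptor phosphorylates Smad1, Smad5 and Smad9, which join Smad4 and enter the nucleus, where the Id genes are among the genes that respond fastest. Id proteins hold bHLH transcription factors away from DNA. The pathway also switches on its own brakes: Smad6 and Smad7 block the receptors and the Smads, and antagonists such as Nog and Grem1 bind the ligands outside the cell.

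The promoter windows, 250 bases that end just before the annotated start in RefSeq for GRCm38.p6, are shown for 1 gene of each kind of behaviour described below. Smad6 (chr9:64022060-64022309, minus strand) had the largest fold change of these genes between dexamethasone + EPC-EVs and dexamethasone, Bmp4 (chr14:46390670-46390919, minus strand) was the ligand with counts, and Grem1 (chr2:113758649-113758898, minus strand) was the most abundant of these genes. Capitals mark matches, on either strand, to GGCGCC (a GC-rich element bound by BMP Smads), CAGAC (the Smad box) and AGAACA (a half-site of the glucocorticoid receptor).
Smad6: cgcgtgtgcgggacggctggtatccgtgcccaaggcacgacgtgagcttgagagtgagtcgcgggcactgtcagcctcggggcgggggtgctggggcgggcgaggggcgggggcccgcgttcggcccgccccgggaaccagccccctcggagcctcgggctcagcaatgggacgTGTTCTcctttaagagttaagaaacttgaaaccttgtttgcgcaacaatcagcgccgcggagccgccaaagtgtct
Bmp4: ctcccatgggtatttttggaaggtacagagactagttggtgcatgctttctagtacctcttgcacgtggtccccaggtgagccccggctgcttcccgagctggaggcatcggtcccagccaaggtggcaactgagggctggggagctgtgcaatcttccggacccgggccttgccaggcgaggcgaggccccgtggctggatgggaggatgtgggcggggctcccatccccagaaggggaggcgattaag
Grem1: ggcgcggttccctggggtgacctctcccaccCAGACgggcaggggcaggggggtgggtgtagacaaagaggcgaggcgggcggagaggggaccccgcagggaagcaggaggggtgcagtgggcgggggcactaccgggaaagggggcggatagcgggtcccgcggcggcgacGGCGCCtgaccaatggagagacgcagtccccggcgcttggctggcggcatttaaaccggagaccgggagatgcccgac
The Smad6 window held 1 match to AGAACA, as its reverse complement, 76 bases before the start. The Grem1 window held GGCGCC at 78 bases and CAGAC at 219 bases before the start, and the Bmp4 window held none of these letters. Of the 10 genes, 6 matched the promoter table, and among these GGCGCC was also present before Bmpr1a at 198 bases and Id2 at 231 bases, and CAGAC before Id3 at 167 and 68 bases. These 3 windows are not printed, since annotated exons cover 141 of the 250 bases for Bmpr1a, 161 for Id2 and all 250 for Id3. Of 32851 windows in the table, 9.59% held GGCGCC, 42.19% held CAGAC and 16.08% held AGAACA. No match overlapped a match to another motif. A match is a string of letters and was not tested as a binding site.

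Library totals ran from 5146760 to 6583735 counts in the control and dexamethasone groups and were 12864009 and 13182014 in the dexamethasone + EPC-EVs group. Levels are given in CPM, counts scaled to the library total, and where no count was seen the upper limit is 3 counts, or 0.228 to 0.583 CPM by library, for counting error only. Mitochondrially encoded genes took 7.46% and 8.62% of the control counts, 5.55% and 5.78% of the dexamethasone counts, and 0.465% and 0.727% of the dexamethasone + EPC-EVs counts. The depth and this share therefore moved with the vesicle group, and their part in the results below was not tested. Of 8 osteoblast markers, Col1a1, Col1a2, Spp1 and Runx2 were abundant, with a summed level for the list between 14970 and 26760 CPM. Alpl, Bglap and Ibsp, which mark later osteoblasts, averaged at most 3.60 CPM in every group. Sp7 had 4.2 and 1.2 CPM in control, 6.3 and 3.7 CPM in dexamethasone, and 20.6 and 3.6 CPM in dexamethasone + EPC-EVs. The abundant markers moved with the vesicle group in both directions: from dexamethasone to dexamethasone + EPC-EVs the mean of Col1a1 went from 2666 to 7842 CPM and that of Col1a2 from 2745 to 10510 CPM, whereas that of Spp1 went from 10630 to 5254 CPM, and their part in the results below was not tested. Of 7 endothelial markers, 6 had a row, with sums of 416 and 379 CPM in control, 361 and 373 CPM in dexamethasone, and 290.3 and 242 CPM in dexamethasone + EPC-EVs, nearly all of it Cd34. Cdh5, Tek and Prom1 were at 0 in both dexamethasone + EPC-EVs libraries and had at most 8 counts in any other, Vwf had between 8 and 28 counts in every library, and Pecam1 had at most 7 counts except in dexamethasone + EPC-EVs replicate 2, with 21. The 3 macrophage markers with a row (of 4) summed to between 3.98 and 7.72 CPM except in dexamethasone + EPC-EVs replicate 2, at 38.6 CPM, where Csf1r supplied most of it. The 4 adipocyte markers summed to 7.33 and 2.79 CPM in control, 9.90 and 4.27 CPM in dexamethasone, and 0.713 and 0.157 CPM in dexamethasone + EPC-EVs, with Fabp4 averaging 5.84 CPM in dexamethasone and 0.435 CPM with EPC-EVs. The adipocyte sums with EPC-EVs lay below those of the other 4 libraries, and the part of these markers in the results below was not tested.

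Grem1 and Bmpr1a stood at the top of the circuit in control and dexamethasone cells, and Id3 passed Bmpr1a in mean level once EPC-EVs were present. On the FPKM scale, which divides by gene length and so allows genes to be compared, the control means were 114 ± 17.0 (SD, n = 2) for Grem1, 28.9 ± 5.70 for Bmpr1a, 8.31 ± 2.31 for Bmp4, 3.55 ± 1.56 for Smad7, 2.69 ± 0.967 for Id1, 1.73 ± 0.00303 for Id3, 1.65 ± 0.717 for Id2 and 0.616 ± 0.785 for Smad6. Grem1, Bmpr1a and Bmp4 each stood above the next in order by more than their SDs in control, whereas from Smad7 down to Smad6 each gene lay within the spread of its neighbour. In dexamethasone the order began with Grem1 at 69.4 ± 4.50 FPKM and Bmpr1a at 20.0 ± 0.218 FPKM, followed by Id3 at 7.13 ± 1.43, Id1 at 5.37 ± 0.190, Smad7 at 4.99 ± 2.73, Bmp4 at 3.99 ± 0.960 and Id2 at 2.52 ± 1.54 FPKM. Id3 was above Id1 by slightly more than their SDs, and from Id1 to Id2 neighbours lay within their spread. Smad6 was last among the genes with several counts, at 0.237 ± 0.201 FPKM. With EPC-EVs the order was Grem1 at 65.1 ± 6.52, Id3 at 23.6 ± 0.776, Bmpr1a at 17.9 ± 4.09, Id1 at 15.3 ± 1.47, Smad7 at 11.1 ± 1.19, Bmp4 at 8.94 ± 3.05, Id2 at 4.66 ± 2.44 and Smad6 at 3.58 ± 0.570 FPKM. Here Grem1, Id3 and Id1 stood above the next in order by more than their SDs, Bmpr1a and Id1 overlapped, and so did the neighbours from Smad7 down to Smad6. Bmp2 had 1 count in all 6 libraries together, in dexamethasone replicate 1.

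**Figure D1:**
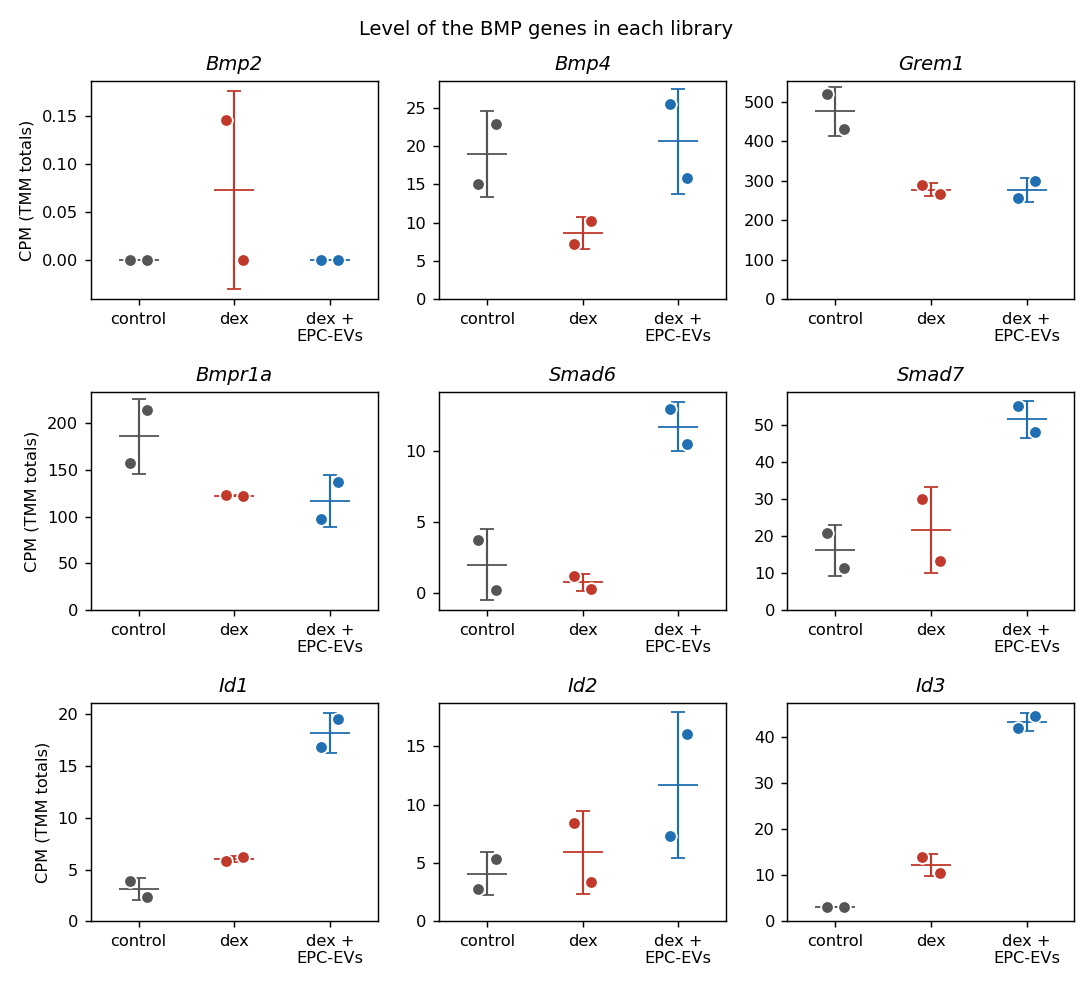
Level in CPM (counts scaled to the TMM-normalized library total, linear axis, 1 scale per gene) of the 9 genes with a row, by group. Points are the 2 libraries of a group, the horizontal line is their mean and the bar is ± 1 SD. Both dexamethasone + EPC-EVs libraries lie above all others for Id1, Id3, Smad6 and Smad7, and Bmp2 has a single count. The share of all genes for which they do so was not counted.

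Between dexamethasone + EPC-EVs and dexamethasone, the target genes Id1 and Id3, both inhibitory Smads and the ligand Bmp4 were higher with EPC-EVs, by 2.31- to 15.3-fold. The receptor Bmpr1a and the antagonist Grem1 were not called, and neither was Id2. Counts were compared by edgeR's quasi-likelihood test on the 4 libraries of both groups, and a gene was called at a Benjamini-Hochberg adjusted p under 0.05 over all genes tested. Of these genes 8 passed the low-count filter, and 5 were called higher and 0 lower, while over all 13556 genes tested 20.9% were called higher, 18.9% lower and 39.8% in either direction. The median log2 fold change of the 8 was 1.21, against 0.01 over all genes tested. The filter asks for 2 libraries at or above a cutoff, here 1.03 CPM, and Smad6 reached it in 1 dexamethasone library, so that it could be tested only through the dexamethasone + EPC-EVs libraries, where it was high. Without it 4 of 7 were called higher, by 2.31- to 3.41-fold, with a median of 1.21. Under the threshold stated in the study's methods, an unadjusted p under 0.05 with a log2 fold change beyond 1.5, Id1, Id3 and Smad6 passed, 3 of 8, or 2 of 7 without Smad6, against 14.2% of all genes.

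Between dexamethasone and control, none of these genes was called. Of 7 tested (Smad6 and Bmp2 were filtered out), 0 were called by edgeR, against 0.0544% of 12879 genes in either direction, 0.0155% higher and 0.0388% lower. At an unadjusted p under 0.05 there were 4 of 7, against 10.9% of all genes, namely Id3, which was higher in both dexamethasone libraries, and Grem1, Bmpr1a and Bmp4, which were lower in both. DESeq2 called Grem1 alone and gave no adjusted p for Bmp4, Id1, Id2, Id3 and Smad7, and limma on log2(FPKM + 1) called 0, with 5 at an unadjusted p under 0.05. Id3 alone met the study's threshold, which 1.41% of all genes met. The median log2 fold change of the 7 was 0.41, against 0.01 over all genes. Over all genes, the calls were sensitive to the libraries used: 7 were called with all 4 libraries and 2200 without control replicate 1, when 4 of these genes were called.

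Between dexamethasone + EPC-EVs and control, Id1, Id3 and Smad7 were higher and Grem1 and Bmpr1a lower in the cells that had received both agents. Of 8 tested, 3 were called higher and 2 lower, against 19.1% and 17.2% of 13511 genes, and 36.4% in either direction. The study's threshold was met by 4 of them, or 3 of 7 without Smad6, which again passed the filter only through the dexamethasone + EPC-EVs libraries, against 20.7% of all genes. The median log2 fold change was 1.55 for the 8 and 1.48 without Smad6, against 0.02 over all genes. This comparison shares its dexamethasone + EPC-EVs libraries with the first and its control libraries with the second, so that the 3 sets of values are not independent.

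**Figure D2:**
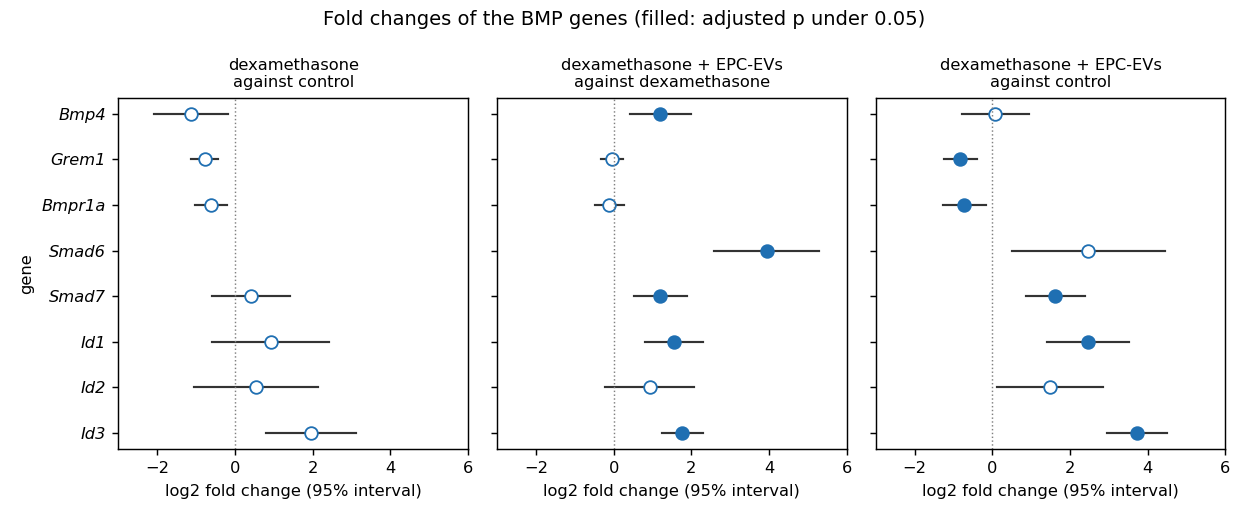
Log2 fold change (x axis) of each tested gene in the 3 comparisons, with its 95% interval from edgeR's quasi-likelihood fit on 4 libraries, and filled points where the adjusted p is under 0.05. None is filled for dexamethasone against control, 5 are filled to the right of 0 for dexamethasone + EPC-EVs against dexamethasone, and 3 to the right and 2 to the left of 0 for dexamethasone + EPC-EVs against control.

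Bmp4 (ENSMUSG00000021835.15, chromosome 14, 46383520 to 46390669, minus strand, GRCm38) encodes a ligand that induces bone and acts through Bmpr1a. Its counts were 92 and 115 in control, 49 and 69 in dexamethasone, and 321 and 201 in dexamethasone + EPC-EVs, or 15.0 and 22.9, 7.13 and 10.2, and 25.4 and 15.8 CPM. The dexamethasone libraries were the lowest pair and did not overlap either other group, whereas control and dexamethasone + EPC-EVs overlapped. With EPC-EVs, Bmp4 was 2.31-fold higher than in dexamethasone (log2 fold change 1.21, SE 0.355, adjusted p = 0.0185). Against control the value with EPC-EVs was 0.08 on the log2 scale, with a 95% interval from -0.79 to 0.94 (adjusted p = 0.897). Dexamethasone against control gave -1.13 (SE 0.429, adjusted p = 0.393), and the 95% interval ran from -2.08 to -0.19. With 1 library left out this value ran from -1.41 to -0.79. The call against dexamethasone was lost when dexamethasone replicate 1 (adjusted p = 0.120), dexamethasone replicate 2 (0.0503) or dexamethasone + EPC-EVs replicate 1 (0.196) was left out, and with the trend on GC content and length removed, as described below (0.85, adjusted p = 0.0858). The noncoding genes Gm15217 and Gm15222 overlap Bmp4 on the other strand, the second with at most 10 counts in a library. The study aligned its reads with a stranded setting, but whether they were counted by strand is not given in the sources used here.

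Bmp2 (ENSMUSG00000027358.6, chromosome 2, 133552159 to 133562885, plus strand) encodes a ligand that can induce bone on its own. With 0 counts in 5 of the 6 libraries it was not detectable at this depth, and no fold is given.

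Grem1 (ENSMUSG00000074934.3, chromosome 2, 113746164 to 113758646, minus strand) encodes gremlin, which binds Bmp2 and Bmp4 and keeps them from their receptors. The counts were 3192 and 2168 in control, 1982 and 1806 in dexamethasone, and 3226 and 3810 in dexamethasone + EPC-EVs, which corresponds to 519.9 and 431.5, 288.5 and 265.9, and 255.5 and 299.1 CPM. Both control libraries were above all 4 treated libraries, and the libraries of the dexamethasone and dexamethasone + EPC-EVs groups overlapped. With EPC-EVs the level was lower than in control, by 0.83 on the log2 scale (log2 fold change -0.83, SE 0.186, adjusted p = 0.00957), but not beyond the threshold without dexamethasone + EPC-EVs replicate 1 (adjusted p = 0.0814) or with the GC and length trend removed (-0.50, adjusted p = 0.0571). Against dexamethasone it was -0.05, with a 95% interval from -0.34 to 0.24 (adjusted p = 0.810). Dexamethasone against control gave -0.79 (SE 0.153, 95% interval -1.12 to -0.45), with an unadjusted p of 0.00036 and an adjusted p of 0.172 over all genes. Grem1 was called in this comparison by DESeq2 (adjusted p = 0.000383), without the low-count filter (0.00121) and with the replicate block (0.0288). It was not called with limma (0.371), all 6 libraries in one fit (0.160), RLE normalization (0.138) or no mitochondrial genes (0.212). With the GC and length trend removed it was not called either (0.0846). With 1 library left out the log2 fold change ran from -0.90 to -0.64.

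Bmpr1a (ENSMUSG00000021796.15, chromosome 14, 34410734 to 34503341, minus strand) encodes the type I receptor for Bmp2 and Bmp4. Its libraries held 966 and 1075 counts in control, 842 and 828 in dexamethasone, and 1223 and 1737 in dexamethasone + EPC-EVs, that is 157 and 214, 123 and 122, and 96.9 and 136 CPM. Control was highest, and the dexamethasone + EPC-EVs libraries fell on either side of the dexamethasone pair. The level with EPC-EVs was lower than in control (log2 fold change -0.72, SE 0.241, adjusted p = 0.0460), a call that was lost when control replicate 2 (adjusted p = 0.161) or dexamethasone + EPC-EVs replicate 1 (0.306) was left out, and with limma (0.0757). With the GC and length trend removed this value was 0.034, with the other sign (adjusted p = 0.925). Against dexamethasone the log2 fold change was -0.11, with a 95% interval from -0.49 to 0.26 (adjusted p = 0.633). Dexamethasone against control gave -0.61 (SE 0.188, adjusted p = 0.334), and from -0.81 to -0.36 with 1 library left out. Gm17110, on the other strand, has no row in the table.

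Smad6 (ENSMUSG00000036867.7, chromosome 9, 63953076 to 64022059, minus strand), whose promoter window is shown above, encodes an inhibitory Smad that acts mainly on BMP receptors. Only 23 and 1 reads were counted on it in control and 8 and 2 in dexamethasone, against 164 and 134 in dexamethasone + EPC-EVs, which are 3.75 and 0.199, 1.17 and 0.294, and 13.0 and 10.5 CPM. The dexamethasone + EPC-EVs libraries were above the other 4, and the control libraries lay on either side of the dexamethasone pair. The gene was 15.3-fold higher with EPC-EVs than with dexamethasone alone (log2 fold change 3.94, SE 0.621, 95% interval 2.58 to 5.30, adjusted p = 0.000461). Without dexamethasone replicate 1 the log2 fold change was 5.24, without dexamethasone replicate 2 it was 3.28, and both were called. Against control the log2 fold change was 2.47 (SE 0.862, adjusted p = 0.0529), just outside the threshold. This value rested on the single control library with 23 counts, since without control replicate 1 it was 5.79 (adjusted p = 0.00102) and without control replicate 2 it was 1.62 (adjusted p = 0.0351).

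Smad7 (ENSMUSG00000025880.11, chromosome 18, 75367529 to 75395935, plus strand) encodes the inhibitory Smad that acts on both the BMP and the TGF-beta branches. The counts were 129 and 57, 206 and 91, and 697 and 614 in control, dexamethasone and dexamethasone + EPC-EVs, with 21.0 and 11.3, 30.0 and 13.4, and 55.2 and 48.2 CPM. Control and dexamethasone overlapped, and both dexamethasone + EPC-EVs libraries were higher than these 4. Smad7 was 2.31-fold higher with EPC-EVs than in dexamethasone (log2 fold change 1.21, SE 0.311, adjusted p = 0.00945) and 3.07-fold higher than in control (1.62, SE 0.334, adjusted p = 0.00659). Without dexamethasone replicate 2 the first of these was 0.74 and not called (adjusted p = 0.0685), and without dexamethasone replicate 1 it was 1.92 and called. Neither was called with the GC and length trend removed (0.56, adjusted p = 0.171, and 0.63, adjusted p = 0.117). Dexamethasone against control gave 0.41 (95% interval -0.58 to 1.41, adjusted p = 0.775).

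The Id genes encode inhibitors of bHLH factors, and Id1 and Id3 were higher with EPC-EVs than in either other group. Id3 (ENSMUSG00000007872.3, chromosome 4, 136143497 to 136145755, plus strand) had 19 and 16 counts in control, 96 and 72 in dexamethasone and 530 and 569 in dexamethasone + EPC-EVs. In CPM these were 3.10 and 3.19, 14.0 and 10.6, and 42.0 and 44.7, without overlap between the groups. The share of all genes without such overlap was not counted. Id3 was 3.41-fold higher with EPC-EVs than in dexamethasone (log2 fold change 1.77, SE 0.245, adjusted p = 0.000198) and 13.3-fold higher than in control (3.73, SE 0.340, adjusted p = 0.000306). The value for dexamethasone against control, 1.96 (SE 0.530, 95% interval 0.79 to 3.13), corresponds to 3.88-fold and had an unadjusted p of 0.0037 but an adjusted p of 0.291. With 1 library left out it ran from 1.74 to 2.15, and whether it was called depended on the library.

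Id1 (ENSMUSG00000042745.9, chromosome 2, 152736251 to 152737410, plus strand) is often used as a readout of BMP signalling. Its counts were 24 and 12 in control, 40 and 42 in dexamethasone and 212 and 249 in dexamethasone + EPC-EVs, or 3.91 and 2.39, 5.82 and 6.18, and 16.8 and 19.6 CPM. As for Id3, the libraries of the 3 groups did not overlap, and how often this happens over all genes was not counted. Id1 was 2.93-fold higher with EPC-EVs than in dexamethasone (log2 fold change 1.55, SE 0.342, adjusted p = 0.00391) and 5.52-fold higher than in control (2.46, SE 0.462, adjusted p = 0.00432). Dexamethasone against control gave 0.91 (95% interval -0.60 to 2.43, adjusted p = 0.661).

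Id2 (ENSMUSG00000020644.9, chromosome 12, 25093799 to 25097140, minus strand) was the least even of the Id genes. It had 17 and 27 counts in control, 58 and 23 in dexamethasone and 92 and 205 in dexamethasone + EPC-EVs, with 2.77 and 5.37, 8.44 and 3.39, and 7.29 and 16.1 CPM. The dexamethasone libraries overlapped both other groups, and the dexamethasone + EPC-EVs libraries were above those of control. The log2 fold change was 0.93 against dexamethasone (95% interval -0.21 to 2.08, adjusted p = 0.178) and 1.48 against control (95% interval 0.12 to 2.84, adjusted p = 0.0843). Id2 was called against dexamethasone without dexamethasone + EPC-EVs replicate 1 (adjusted p = 0.0498), and against control without control replicate 2 (0.0433) and without the low-count filter (0.0327). Dexamethasone against control gave 0.54 (adjusted p = 0.830).

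Id4, the remaining Id gene, was listed with the other targets and had its highest levels in control. The FPKM of Id4 were 30.2 and 31.4 in control, 18.7 and 17.4 in dexamethasone and 21.0 and 10.5 in dexamethasone + EPC-EVs. The summed FPKM of Id1, Id2 and Id3 were 6.25 and 5.90, 17.0 and 13.1, and 40.1 and 46.8 in the same libraries. Id4 was therefore the most abundant Id transcript in control, and exceeded the sum of the others in both control and both dexamethasone libraries but in neither dexamethasone + EPC-EVs library. Id4 was called lower with EPC-EVs than in control (log2 fold change -0.997, SE 0.309, adjusted p = 0.0347). That call was lost when control replicate 1 (adjusted p = 0.0746), control replicate 2 (0.112) or dexamethasone + EPC-EVs replicate 2 (0.243) was left out, with limma (0.0553), and with the GC and length trend removed (-0.42, adjusted p = 0.318). Against dexamethasone the value was -0.16 (adjusted p = 0.675).

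The other genes of the pathway moved in both directions. Of 54 listed, 45 had a row and 36, 37 and 38 were tested in dexamethasone against control, dexamethasone + EPC-EVs against dexamethasone, and dexamethasone + EPC-EVs against control. In the first, edgeR called 0 of 36, with 3 at an unadjusted p under 0.05, where the share over all genes was 10.9% (Id4, Chrdl1 and, named after its values were seen, Fst, all lower in both dexamethasone libraries). DESeq2 called 2 and limma 0, the latter with 2 at an unadjusted p under 0.05. In dexamethasone + EPC-EVs against dexamethasone, 6 of 37 passed as higher and 4 as lower, and their log2 fold changes had a median of 0.18. In dexamethasone + EPC-EVs against control, 5 of 38 passed as higher and 5 as lower, around a median of -0.11. These counts include genes that could be tested only through the dexamethasone + EPC-EVs libraries, since fewer than 2 libraries of the other group reached the cutoff: Msx1 against dexamethasone, and Twist2 and Bambi against control. Without them 5 of 36 and 4 of 36 were called higher, with 4 and 5 lower and medians of 0.18 and -0.13. The shares of all genes called in each direction are those given above, and the called share of the pathway genes was below the share over all genes in both comparisons.

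No other ligand had enough counts to be tested with EPC-EVs against dexamethasone alone, and the most abundant, Gdf6, averaged 0.396 FPKM over the 6 libraries. Among the 6 other receptors and co-receptors tested, 1 was called higher and 1 lower. The type II receptor Bmpr2 had 2081 and 1970 counts in control, 2030 and 1988 in dexamethasone and 2155 and 2482 in dexamethasone + EPC-EVs, and was lower with EPC-EVs than in dexamethasone (log2 fold change -0.73, adjusted p = 0.00101) and than in control (-1.05, adjusted p = 0.00323). With the GC and length trend removed, Bmpr2 gave -0.012 (adjusted p = 0.953) and -0.19 (adjusted p = 0.411) and was called in neither. The co-receptor Rgmb had 127 and 79, 107 and 208, and 500 and 698 counts, and was higher with EPC-EVs in both (0.99, adjusted p = 0.0222, and 1.32, adjusted p = 0.00994). Rgmb was not called against dexamethasone without dexamethasone replicate 1 (adjusted p = 0.168), and in neither comparison when dexamethasone + EPC-EVs replicate 2 was left out (0.0643 and 0.0877). With limma it was not called against dexamethasone (0.0524). The most abundant of these, the type I receptor Acvr1, averaged 18.6 FPKM over the 6 libraries and was not called.

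Of 9 other secreted antagonists and modulators tested, Nbl1 was called higher and Chrdl1 lower in both comparisons with EPC-EVs. Nbl1 encodes a DAN-family BMP antagonist related to gremlin, and its counts were 72 and 20 in control, 86 and 60 in dexamethasone and 789 and 860 in dexamethasone + EPC-EVs. It was 5.89-fold higher with EPC-EVs than in dexamethasone (log2 fold change 2.56, SE 0.240, adjusted p = 1.37e-05). Chrdl1 encodes a chordin-like BMP antagonist and had 757 and 720, 684 and 696, and 659 and 463 counts. In the deeper dexamethasone + EPC-EVs libraries these correspond to 44.3 ± 11.2 CPM with EPC-EVs (SD, n = 2) against 101 ± 2.04 CPM in dexamethasone (log2 fold change -1.24, SE 0.193, adjusted p = 0.000439). Against control, Nbl1 was 7.87-fold higher (2.98, adjusted p = 0.00155) and Chrdl1 gave -1.64 (adjusted p = 0.00163), and both genes were called in 12 of 12 alternatives in each comparison. Across the alternatives, the log2 fold change against control ran from 1.45 to 4.02 for Nbl1 and from -1.91 to -0.87 for Chrdl1. Fstl1, the most abundant on this list at 68.9 FPKM over the 6 libraries, was not called (log2 fold change -0.28, adjusted p = 0.0829 against dexamethasone).

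Among the 10 Smads and Smad regulators, Smad5, which carries the BMP signal, was lower (log2 fold change -0.54, adjusted p = 0.0222) and Smurf1, a ubiquitin ligase that removes Smads and receptors, was higher (0.49, adjusted p = 0.0258) with EPC-EVs than in dexamethasone. The values against control were -0.82 (adjusted p = 0.0146) for Smad5 and 0.66 (adjusted p = 0.0323) for Smurf1. Against dexamethasone, both calls were lost when dexamethasone replicate 1 (adjusted p = 0.129 for Smad5 and 0.0837 for Smurf1), dexamethasone replicate 2 (0.0755 and 0.186) or dexamethasone + EPC-EVs replicate 1 (0.0608 and 0.116) was left out, and against control when dexamethasone + EPC-EVs replicate 1 (0.109 and 0.279) or 2 (0.0835 and 0.0566) was. Smurf1 was also not called against dexamethasone with all 6 libraries in one fit (0.0503) or with limma (0.0816). With the GC and length trend removed Smurf1 had the other sign in both comparisons, at -0.062 (adjusted p = 0.786) and -0.18 (adjusted p = 0.556), and Smad5 was called in neither (-0.23 and -0.41). Smurf2, at 27.8 FPKM over the 6 libraries the most abundant of them, was not called. Of 7 other targets tested, 2 were called higher against dexamethasone. Atoh8 had 73 and 48 counts in dexamethasone and 238 and 254 with EPC-EVs (log2 fold change 1.08, adjusted p = 0.0217). Msx1, which averaged under 10 CPM and is named after its values were seen, had 19 and 2 counts in dexamethasone and 118 and 101 with EPC-EVs (2.44, adjusted p = 0.0196). Only 1 dexamethasone library reached the filter's cutoff, so that Msx1 could be tested there only through the dexamethasone + EPC-EVs libraries. Its log2 fold change was 4.79 without dexamethasone replicate 1 and 1.59 without dexamethasone replicate 2. Leaving out dexamethasone replicate 2 ended the calls of Atoh8 (adjusted p = 0.120) and Msx1 (0.0723), and leaving out dexamethasone + EPC-EVs replicate 1 (0.0553) or 2 (0.0737) that of Atoh8. With all 6 libraries in one fit neither was called (0.169 for Atoh8 and 0.0585 for Msx1), nor with the GC and length trend removed, where Atoh8 was -0.021, with the other sign (adjusted p = 0.969), and Msx1 1.67 (adjusted p = 0.0926). The osteoblast regulator Dlx5, the most abundant of these targets, was not called (log2 fold change 0.18, adjusted p = 0.472).

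Of the 5 bHLH genes whose proteins pair with or are held by Id proteins, Tcf3 was higher and Tcf12 lower with EPC-EVs than in dexamethasone. Tcf3 had 454 and 236 counts in control, 588 and 414 in dexamethasone and 1780 and 1623 in dexamethasone + EPC-EVs (log2 fold change 0.83, adjusted p = 0.00336). Tcf12 gave -0.47 (adjusted p = 0.0156), and the most abundant by FPKM, Twist1, was not called. Without dexamethasone replicate 2 neither Tcf3 (adjusted p = 0.0643) nor Tcf12 (0.0763) was called, and without dexamethasone replicate 1 Tcf12 was not (0.138). Against control, Tcf3 gave 1.10 (adjusted p = 0.00999) and Tcf12 -0.78 (adjusted p = 0.0113), the latter lost without dexamethasone + EPC-EVs replicate 2 (0.1005). With the GC and length trend removed Tcf3 had the other sign, at -0.16 against dexamethasone (adjusted p = 0.474) and -0.44 against control (adjusted p = 0.111), and Tcf12 was not called (-0.16 and -0.36). Against control, Twist2 was also called higher (log2 fold change 2.98, adjusted p = 0.0463), from 5 and 1 counts to 60 and 50, and is named after its values were seen, since it averaged under 10 CPM. No control library reached the filter's cutoff, so that Twist2 could be tested only through the dexamethasone + EPC-EVs libraries, where it was high. Twist2 ran from 1.01 to 4.36 on the log2 scale across the alternatives. It was not called without control replicate 2 (adjusted p = 0.0667) or without dexamethasone + EPC-EVs replicate 1 (0.377) or 2 (0.270), nor by DESeq2 (0.0506), nor with the GC and length trend removed (2.43, adjusted p = 0.0993).

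**Figure D3:**
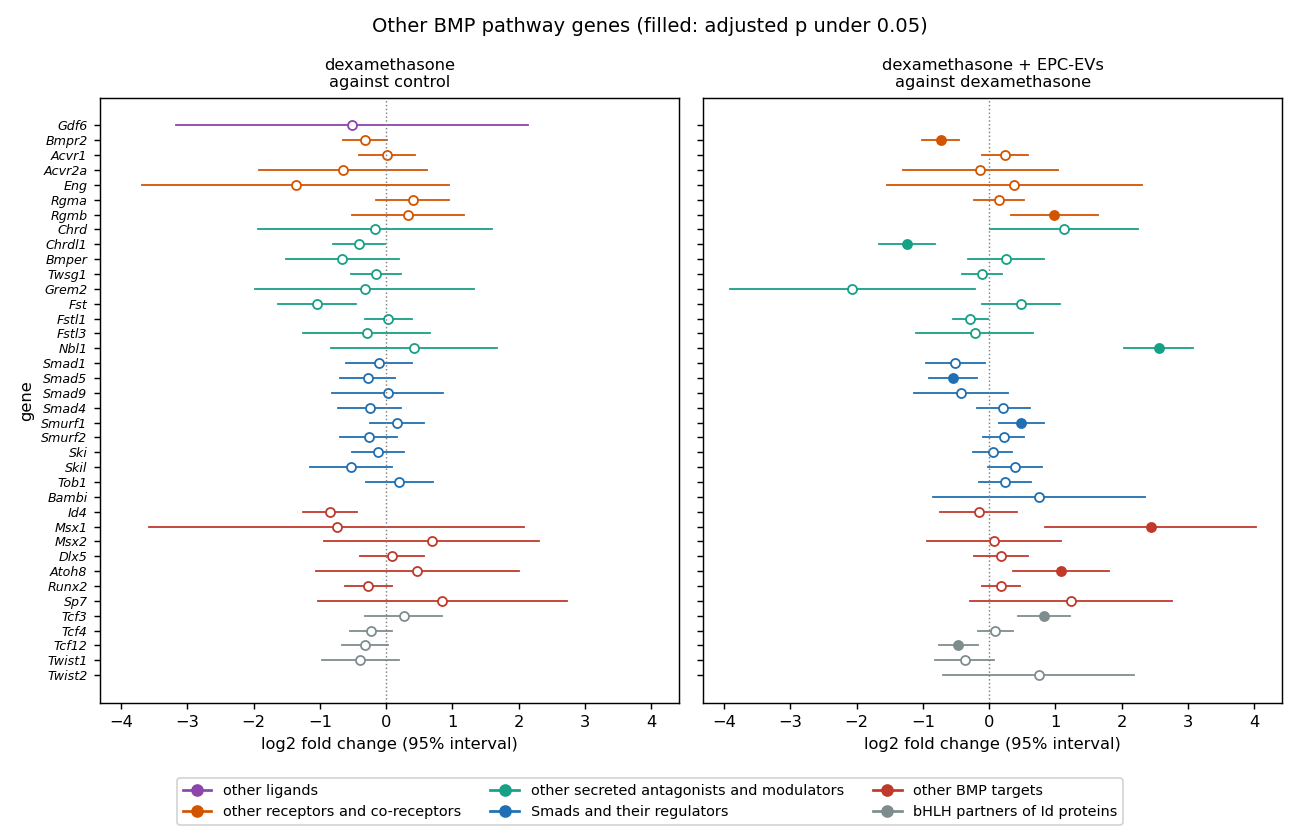
Log2 fold change (x axis, the same scale in both panels) with its 95% interval from edgeR for the other genes of the BMP pathway that were tested, coloured by role, with filled points where the adjusted p is under 0.05. No point is filled for dexamethasone against control, and 10 are filled for dexamethasone + EPC-EVs against dexamethasone, 6 to the right and 4 to the left of 0.

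The genes called higher with EPC-EVs than in dexamethasone had a higher GC content than those not called. The longest transcripts of Smad6, Smad7, Id3 and Id1 have a GC content of 60.8%, 56.9%, 55.6% and 54.7%, Bmp4 of 52.5%, Id2 of 45.2%, Grem1 of 44.7% and Bmpr1a of 41.3%, where the median of the genes in the table is 48.7%. The dependence of the fold changes on GC content and length was taken out by a loess fit. In dexamethasone + EPC-EVs against dexamethasone, 4225 of 13544 genes were then called (1982 higher and 2243 lower), and 3 of the 8 BMP genes. The 3 were Id1 (log2 fold change 1.04, adjusted p = 0.0390), Id3 (1.18, adjusted p = 0.00318) and Smad6 (2.98, adjusted p = 0.00334). Smad6 could be tested only through the libraries with EPC-EVs, and without it Id1 and Id3 remain. Bmp4 gave 0.85 (adjusted p = 0.0858) and Smad7 0.56 (adjusted p = 0.171). In dexamethasone + EPC-EVs against control, 2 of the 8 remained called, Id1 (1.65, adjusted p = 0.0219) and Id3 (2.79, adjusted p = 0.000448), against 3542 of 13498 genes over all. Smad7 gave 0.63 (adjusted p = 0.117), Grem1 -0.50 (adjusted p = 0.0571) and Bmpr1a 0.034 (adjusted p = 0.925), the last with the other sign. Over all genes, the calls in this comparison were 2587 higher and 2329 lower without this step and 1485 higher and 2057 lower with it. Among the other pathway genes, Nbl1 (1.52, adjusted p = 0.000402), Rgmb (1.01, adjusted p = 0.0235) and Chrdl1 (-0.66, adjusted p = 0.0257) were still called against dexamethasone, and all 3 against control. The other 7 calls against dexamethasone and the other 7 against control were lost, with the values given beside each gene. With genes not called before, 9 of the other pathway genes were called in each comparison. Over all genes, 4225 of 13544 were called against dexamethasone and 3542 of 13498 against control under this setting.

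**Figure D4:**
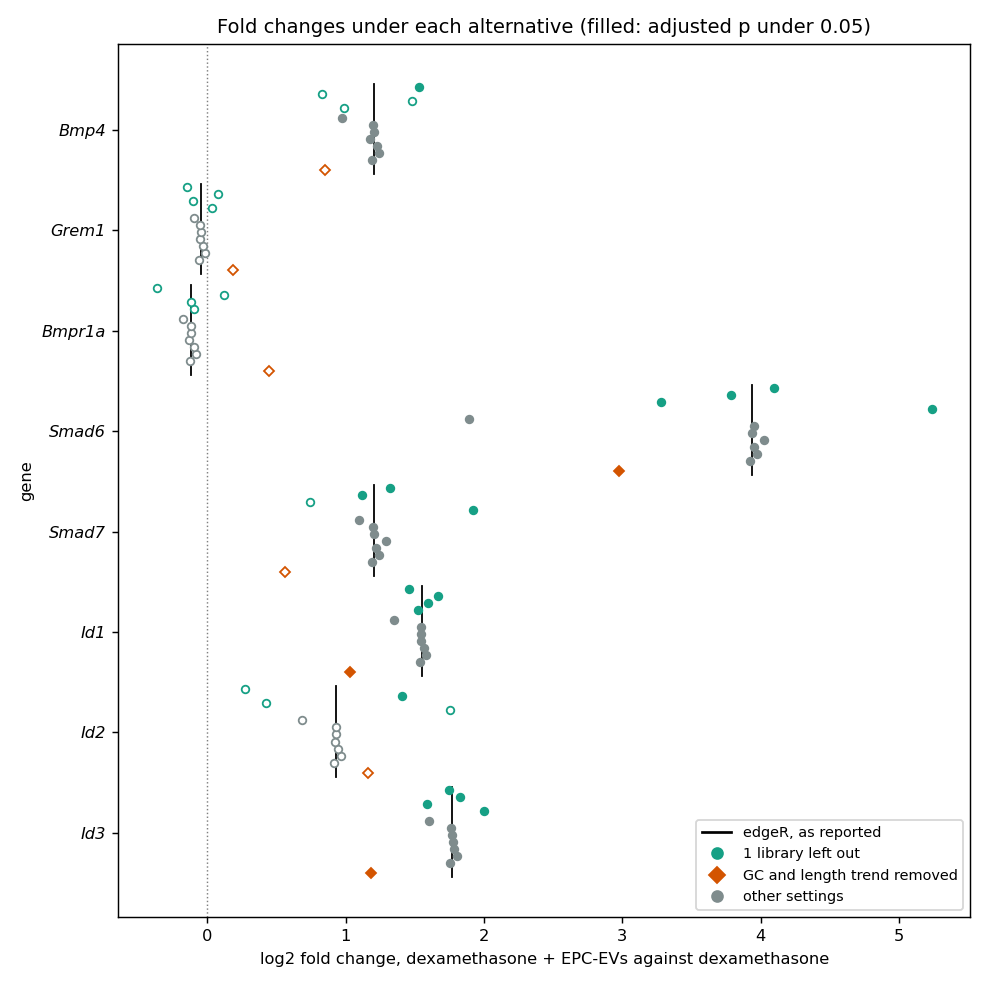
Log2 fold change in dexamethasone + EPC-EVs against dexamethasone (x axis) for each tested gene under the 12 alternatives. The black line is the value reported, green points leave out 1 library, orange diamonds have the GC and length trend removed, grey points are the other settings (heights within a gene only keep the points apart), and filled symbols have an adjusted p under 0.05. All symbols are filled for Id1, Id3 and Smad6, those of Bmp4 and Smad7 in part, 1 of Id2, and none of Grem1 and Bmpr1a.

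The genes whose levels over the 6 libraries were closest in pattern to Id1 and Bmp4 were sought among 9223 genes that averaged 10 CPM or more, by the root mean square difference of centred log2 CPM. For Id1 they were Sqle (0.087), Cyb561a3 (0.092), Wdr81 (0.095), Ppp1r16a (0.104) and Pdlim7 (0.106). Sqle, an enzyme of cholesterol synthesis, averaged 52.5, 102 and 299 CPM in control, dexamethasone and dexamethasone + EPC-EVs. For Bmp4 they were Rgl3 (0.263), Srl (0.264), Ctgf (0.265), Cemip (0.267) and Ndufa9 (0.284), a looser likeness. Ctgf, which encodes a secreted matrix protein, averaged 21.4, 8.57 and 25.4 CPM. The points share libraries, depth and scaling, so these differences are a description.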

How the data were processed

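Per the labels and the study's methods, the authors prepared RNA libraries with the NEBNext Ultra kit, aligned the reads with HISAT2 to GRCm38 and counted them on genes with HTSeq 0.6.1. They deposited the counts without normalization, beside FPKM (count divided by gene length and library total). The deposited series text names fibroblasts and another time, and the sample labels were followed. The counts were tested with edgeR 4.0.16 in R 4.3.3 (TMM, filterByExpr, robust quasi-likelihood test, Benjamini-Hochberg over all genes) within each pair of groups (4 libraries). The test was tried on simulated counts with 100 genes changed 2-fold and 100 changed 4-fold. In dexamethasone against control it called 25% and 69% of these, and 2 of its 96 calls were false. In dexamethasone + EPC-EVs against dexamethasone these values were 42%, 80% and 7 of 129. In dexamethasone + EPC-EVs against control they were 37%, 78% and 18 of 133. CPM use TMM factors over 6 libraries. SDs, with n = 2, cover only the spread between libraries, and in bulk RNA fewer expressing cells and less RNA per cell cannot be told apart. Where libraries of groups are said not to overlap, the share of all genes that do the same was not counted. Coordinates and overlaps are from GENCODE vM21, in which 21646 of 21686 genes were found. The genes and lists were chosen with earlier results of these data known. Other pathway genes are named where called with a mean of at least 10 CPM in a group, or most abundant in their role. The alternatives were RLE, no filter, DESeq2 1.42.0, limma 3.58.1 on log2(FPKM + 1), all 6 libraries, a replicate block, no mitochondrial genes, removal of a GC and length trend (loess span 0.4), and leaving out each library, where a group left with 1 library was assumed to vary like the other. The groups differed in spread: chi-square per degree of freedom between the 2 libraries was 16.62 in control and 7.17 in dexamethasone. Calls with a single control library therefore rest on the dexamethasone spread. Same-numbered libraries did not deviate together (correlations 0.062, 0.002 and 0.030 over 13134 genes). Transcript FPKM, deposited here for chromosome 1, were not used.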

Additional observations from a re-analysis of the deposited data

How the results depend on the processing

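For the 8 BMP genes tested, 229 of 271 alternative values kept their direction and their side of the threshold, 19 passed it only in the alternative, 12 no longer passed it and 11 changed sign. Id1 and Id3 were called in 12 of 12 alternatives in both comparisons with EPC-EVs. Smad6 against dexamethasone was too, but could be tested only through the libraries with EPC-EVs, where it was high. The counts of BMP genes called ranged from 0 to 4 with 1 library left out in dexamethasone against control (reported as 0), and were 1 without the filter, 1 with the replicate block, 1 with DESeq2 and 1 under the study's threshold. They were 3 with the GC and length trend removed, 3 under the study's threshold and 3 to 5 with 1 library left out in dexamethasone + EPC-EVs against dexamethasone (reported as 5), and 2 with the trend removed and 3 to 6 with 1 library left out in dexamethasone + EPC-EVs against control (reported as 5). For the other pathway genes the counts were 2 without the filter, 2 with DESeq2 and 0 to 11 with 1 library left out in the first comparison (reported as 0), 3 under the study's threshold and 4 to 10 with 1 library left out in the second (reported as 10), and 5 to 16 with 1 library left out in the third (reported as 10). With the trend removed, 4225 of 13544 genes were called over all in the second comparison and 3542 of 13498 in the third. The number called over all genes also moved with 1 library left out, as given below. These counts therefore do not describe the BMP genes in particular. The cause of these changes was not tested.

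In dexamethasone against control, the log2 fold change of Id2 ranged from -0.27 to 1.10 and that of Smad7 from -0.28 to 0.94 with 1 library left out. In dexamethasone + EPC-EVs against dexamethasone, these ranges were -0.36 to 0.12 for Bmpr1a and -0.14 to 0.075 for Grem1, and with the trend removed the values were 0.45 and 0.19. In dexamethasone + EPC-EVs against control, Bmp4 ranged from -0.30 to 0.43 and was -0.55 with the trend removed, and Bmpr1a was 0.034. With the trend removed, Atoh8 was -0.021, Smurf1 -0.062 and Tcf3 -0.16 against dexamethasone, and Smurf1 -0.18 and Tcf3 -0.44 against control.

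Over all genes, dexamethasone against control gave 7 calls as reported (2 higher and 5 lower), 10 with RLE normalization, 248 without the filter, 43 with the replicate block, 1 lower without the mitochondrial genes, 19 with the trend removed (8 higher and 11 lower), 129 with DESeq2, 0 with limma (1464 at an unadjusted p under 0.05), 9 with all 6 libraries (5 higher and 4 lower), and 9 to 2200 with 1 library left out. In dexamethasone + EPC-EVs against dexamethasone, 5397 genes were called as reported and 3250 without dexamethasone replicate 2. The median log2 fold change over all genes was 0.17 without the filter and 0.15 without control replicate 1 in dexamethasone + EPC-EVs against control.

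Same-numbered libraries share only a number. With it as a block, Grem1 was called in dexamethasone against control (log2 fold change -0.78, adjusted p = 0.0288), Smad6 in dexamethasone + EPC-EVs against control (2.93, adjusted p = 0.0287), and Twist2 was not (3.13, adjusted p = 0.0787). No other call named in the text changed. The depth limits Smad6 in control and dexamethasone, with 1 to 23 counts, and Bmp2.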

Other observations

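The balance of antagonist to ligand varied between the libraries of a group. The ratio of the FPKM of Grem1 to that of Bmp4 was 18.8 and 10.2 in control, 21.9 and 14.2 in dexamethasone, and 5.45 and 10.3 in dexamethasone + EPC-EVs. The dexamethasone libraries were above both dexamethasone + EPC-EVs libraries, and control overlapped both other groups. Grem1 itself overlapped between dexamethasone and dexamethasone + EPC-EVs, so that this separation restates the Bmp4 values given above. The summed FPKM of the inhibitory Smads, Smad6 and Smad7, were 5.83 and 2.51 in control, 7.30 and 3.16 in dexamethasone, and 15.96 and 13.47 in dexamethasone + EPC-EVs, where the dexamethasone + EPC-EVs libraries lay above all 4 others. These values were not tested.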
